A study of Mus musculus with 21 samples.

Results

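The 10 genes described here encode the immediate-early transcription factors of the AP-1 family (Fos, Fosb, Jun, Junb, Jund and Atf3), of the early growth response family (Egr1, Egr2 and Egr3) and of the NR4A family (Nr4a1). They were chosen by name among the 37734 genes of each RNA-seq table, and all 10 had a row in every table. Conventional dendritic cells (cDCs) came from C57BL/6 mice aged 6-8 weeks, in pools of 10-15 animals. The 6 groups were immature cDC1 of the spleen (5 libraries), immature cDC1 of the thymus (4), mature cDC1 of the thymus (3), and the same states of cDC2 (3 libraries each). In every group the organ was digested with enzymes, CD11c+ cells were enriched on magnetic beads, and the cells were then sorted by flow cytometry. Immature cells were taken as CCR7- Esam- and mature cells as CCR7+ Esam+. The cDC1 gate took CD11c+ CD24+ cells and left out those with CD11b, B220, DX5, F4/80, Ly6c or Ly6g. The cDC2 gate took CD11c+ CD11b+ cells without B220 or CD24, with no exclusion of F4/80 stated. No undigested or unsorted sample was among the groups, so the level of these genes before isolation was not measured.

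Immediate-early genes are transcribed within minutes of a stimulus without new protein synthesis, through factors such as SRF and CREB that are already in the cell. FOS and JUN proteins pair into AP-1 dimers, ATF3 pairs with JUN proteins, the EGR proteins bind GC-rich DNA through zinc fingers, and NR4A1 is an orphan nuclear receptor also induced by antigen receptor signals in lymphocytes. Enzymatic digestion and cell sorting are known to induce many of these genes, and for that reason the spread between replicates is given beside every level.

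The sequences just upstream of 4 members are shown because these members differed in the results: Fos and Nr4a1 fell with maturation of cDC1, whereas Jun and Junb did not pass the test, and Junb and Nr4a1 varied most between replicates of those above the lowest levels. Each run holds the 250 bases before the RefSeq start site on the gene's own strand (GRCm38.p6, the assembly named mm10 by the study). Capitals mark the CRE half-site TGACG or its reverse complement CGTCA, bound by CREB and ATF proteins, and the TATA motif TATAAA.
Fos, chr12:85473640-85473889, plus strand: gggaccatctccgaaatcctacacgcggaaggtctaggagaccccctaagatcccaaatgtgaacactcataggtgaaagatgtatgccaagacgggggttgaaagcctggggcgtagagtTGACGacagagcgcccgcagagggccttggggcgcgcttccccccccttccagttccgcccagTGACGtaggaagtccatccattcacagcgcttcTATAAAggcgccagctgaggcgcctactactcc
Nr4a1, chr15:101266596-101266845, plus strand: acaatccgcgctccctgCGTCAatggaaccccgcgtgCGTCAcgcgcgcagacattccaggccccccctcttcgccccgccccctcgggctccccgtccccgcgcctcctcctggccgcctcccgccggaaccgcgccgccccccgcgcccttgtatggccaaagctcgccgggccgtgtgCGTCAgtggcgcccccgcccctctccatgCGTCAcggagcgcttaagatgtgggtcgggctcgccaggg
Junb, chr8:84978749-84978998, minus strand: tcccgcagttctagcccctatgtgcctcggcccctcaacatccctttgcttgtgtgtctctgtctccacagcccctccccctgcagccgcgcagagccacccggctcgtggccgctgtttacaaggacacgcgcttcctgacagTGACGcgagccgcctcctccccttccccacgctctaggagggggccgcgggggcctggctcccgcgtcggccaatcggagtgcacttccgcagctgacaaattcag
Jun, chr4:95052223-95052472, minus strand: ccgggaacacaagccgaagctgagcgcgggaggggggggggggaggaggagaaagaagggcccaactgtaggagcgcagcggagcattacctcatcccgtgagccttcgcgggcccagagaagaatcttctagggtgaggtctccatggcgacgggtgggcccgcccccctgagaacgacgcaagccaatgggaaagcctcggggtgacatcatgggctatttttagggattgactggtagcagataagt

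The Fos window held the CRE half-site 129 and 66 bases before the start and the TATA motif 33 bases before it. The Nr4a1 window held 4 CRE half-sites, at 233, 213, 69 and 40 bases before the start, the Junb window held 1, at 106 bases, and the Jun window held neither motif. Windows were found for 8 of the 10 members, Egr1 and Egr3 being the exceptions. The CRE half-site was in at least 1 window of 6 of these 8 members, Fosb, Atf3 and Egr2 being those not shown. Among the members not shown that held it, Egr2 alone was called with maturation. A link between motifs and changes was not tested. Of all 32851 upstream windows searched on both strands, 17.8% held the half-site. That is a share of single windows, whereas the count of members takes any window, and Egr2 had several. The TATA motif was in 12.4% of windows and, among the members, in that of Fos. The CArG box bound by SRF was in 1.47% of windows and, among the members, in windows of Egr2 alone, though not in all of them. The AP-1 motif TGANTCA was in 6.75% of windows and in none of the members'. A match describes the letters of a window and does not show binding. Sequence farther upstream than the windows was not searched, and Egr1 and Egr3 had no window to search. A window without a motif, such as that of Fos without the CArG box, therefore does not show that the gene lacks such a site farther upstream.

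Total gene counts lay between 14266867 and 40119669 reads per library. Splenic cDC1 replicates 4 and 5 carried the same number in their description (read here as a pool of mice, which the labels do not state), lane and index, differed far less than the other pairs of that group (chi-square per degree of freedom 2.525 against 26.85 to 190.4) and were counted as 1 sample, which left 20. Thymic immature cDC1 replicates 3 and 4 carried the same pool number, lane and index as each other too, but differed more than the other pairs of their group (100.5 against 24.62 to 93.62) and were kept as 2 samples, so this group holds 4 samples of 3 pools. Most pool numbers were shared by a cDC1 and a cDC2 sample, and a fit with pool as a replicate block is given where it changed a call or moved a difference widely. Mature cDC1 replicate 1 was the only mature sample that shared a pool number with immature samples, so maturation differences from this fit rest on it. Within each tissue and state, the summed cDC1 markers were higher in cDC1 and the summed cDC2 markers higher in cDC2. Across states this did not hold for the cDC1 sum. It was 36600 to 40243 normalized reads in mature cDC1, against 36038 to 56079 in splenic and 63240 to 70270 in thymic immature cDC2. The summed level of 6 mature cDC markers, which include Ccr7 and Esam of the sort, was 388002 to 572947 in the mature samples. It was 26695 to 38613 in thymic immature cDC2 and 1854 to 10787 in the other immature samples. Markers of other cells moved with the groups too. The summed level of 7 T cell markers, none of them at 0 in the thymic groups, was 79.0 to 196 in immature and 590 to 1432 in mature thymic samples. The summed level of 6 macrophage or monocyte markers was 71.9 to 1595 in cDC1 and 2317 to 22843 in cDC2 samples. Library composition also differed, and the slope of a library's deviations on the GC content of the genes ran from -0.483 (splenic cDC2 replicate 2) to 0.603 (splenic cDC1 replicate 3) log2 units per 10% GC. The part of the other cells in the results was not tested. A correction for GC content and length, chosen after the data were seen, is given where it changed a call.

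The 10 genes together took 0.335% to 1.95% of a library's reads. The share was largest in splenic immature cDC2, with 1.08% to 1.95%, and smallest in the mature cells, with 0.335% to 0.483% in mature cDC1 and 0.381% to 0.512% in mature cDC2. Splenic immature cDC1 held 0.764% to 1.28%, thymic immature cDC1 0.888% to 1.17% and thymic immature cDC2 0.696% to 0.897%. No mature sample reached the share of any immature sample. In sorted bulk samples, fewer cells expressing a gene and less RNA per cell cannot be told apart.

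Compared per kilobase of exon, Fos had the highest mean level of the 10 genes in splenic cDC1 (19453 normalized reads per kb), thymic immature cDC1 (29458), mature cDC1 (8493) and thymic immature cDC2 (17061). Nr4a1 was highest in splenic cDC2 (26468 reads per kb) and Jun in mature cDC2 (9002 reads per kb). Nr4a1 was seventh in both mature groups, with 657 reads per kb in mature cDC1 and 803 in mature cDC2. Egr3, Egr2 and Jund were the lowest of the 10 in every group, in that order. Jund, which encodes a JUN protein usually expressed constitutively, was counted with only 0 to 14 reads per sample and its groups cannot be ordered. The exons of Jund share 877 bases (52.6% of its exon length) with the antisense gene Gm11175, and those of Junb and Jun share 173 and 232 bases with the opposite-strand genes Prdx2 and Junos. The strand setting of the counting is not given in the sources used here, so reads of these pairs may have been left out, and those of Junb and Jun also split. Gm11175 itself was counted with only 0 to 9 reads per sample, so hardly any Jund reads were counted under it. Why Jund had so few reads was not tested.

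Ordered by mean level over the groups, the genes fell into several patterns. Fos was highest in thymic immature cDC1 (69284 ± 8988 normalized reads, SD, n = 4), followed by splenic cDC1 (45752.5 ± 6425, n = 4), splenic cDC2 (40149 ± 8830, n = 3) and thymic immature cDC2 (40127 ± 8696, n = 3), with mature cDC2 (20018 ± 2905, n = 3) and mature cDC1 (19975 ± 6571, n = 3) last. The first group stood apart from the rest and the mature pair stood apart below, while splenic cDC1, splenic cDC2 and thymic immature cDC2 overlapped. Egr3 had the same order at the top, with 8106 ± 2262 in thymic immature cDC1, 6013 ± 1652 in splenic cDC1, 3487 ± 703 in splenic cDC2, 2915 ± 658 in thymic immature cDC2, 181 ± 21.4 in mature cDC1 and 148 ± 43.2 in mature cDC2. Its 6 groups formed 3 pairs (immature cDC1, immature cDC2 and mature cells) that overlapped within a pair and not between neighbouring pairs.

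Nr4a1, Fosb, Egr1, Atf3, Jun and Junb had their highest mean in splenic cDC2. For Nr4a1 the means were 92875 ± 34404 in splenic cDC2, 40386 ± 16827 in splenic cDC1, 27590 ± 2317 in thymic immature cDC1, 18665 ± 1675 in thymic immature cDC2, 2817 ± 1357 in mature cDC2 and 2305 ± 1517 in mature cDC1. Both splenic groups overlapped, as did both mature groups, and the other neighbours in this order did not. For Fosb the highest mean was 93069 ± 26384 and the lowest 24803 ± 2984 in mature cDC2, for Egr1 they were 23025 ± 4732 and 5977 ± 1216 in mature cDC2, and for Atf3 48797 ± 17471 and 10860 ± 3368 in mature cDC1. Neighbouring groups overlapped in the whole order of Fosb and Egr1, and in that of Atf3 at all steps but the one from thymic immature cDC2 (34009 ± 4785) to thymic immature cDC1 (19962 ± 3291).

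The means of Jun ran from 36833 ± 13090 in splenic cDC2 to 22029 ± 5370 in thymic immature cDC2, and those of Junb from 30725 ± 18399 in splenic cDC2 to 11503 ± 2212 in thymic immature cDC1. All neighbours overlapped for both genes. Egr2, at levels below 500 in every sample, was highest in thymic immature cDC2 (368 ± 56.5), which stood apart from splenic cDC2 (208 ± 68.2), thymic immature cDC1 (183 ± 64.8) and splenic cDC1 (115 ± 40.0), and lowest in mature cDC2 (28.4 ± 14.0) and mature cDC1 (13.1 ± 16.2).

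**Figure D1:**
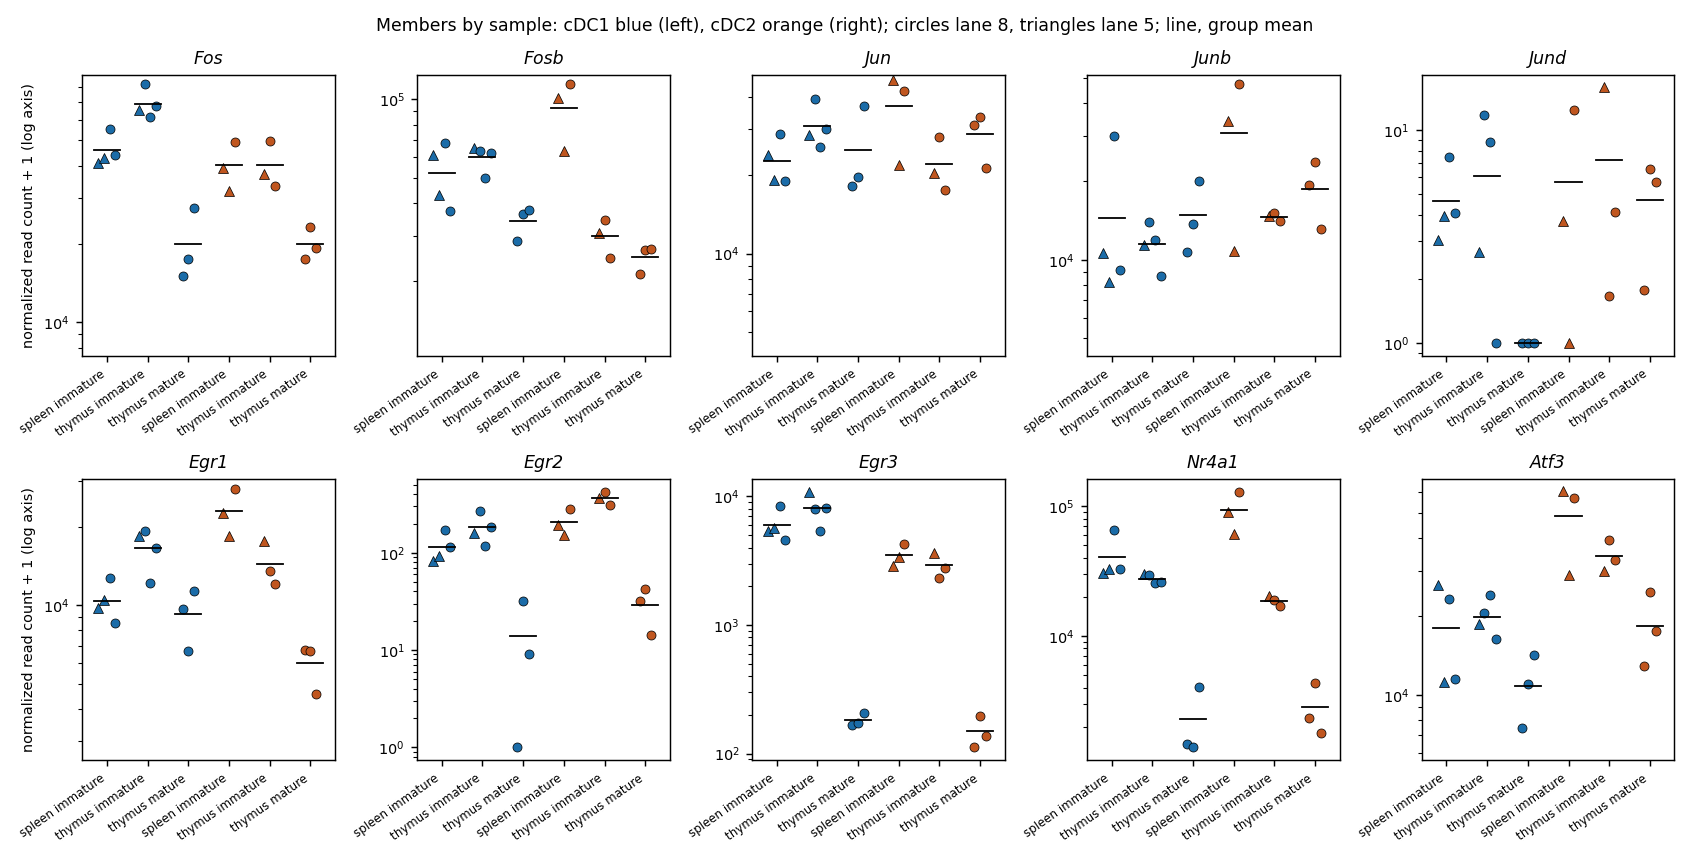
Normalized read count plus 1 (log axis) of each of the 10 genes in each of the 20 samples, with cDC1 groups on the left in blue and cDC2 groups on the right in orange, circles for lane 8, triangles for lane 5 and a line at each group's mean. Egr3 and Nr4a1 lay lower in every mature sample than in any immature sample, whereas the Jun levels overlapped in every pair of groups compared.

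The first comparison asked which of these genes differ between immature and mature cDCs of the thymus. In limma's test with Benjamini-Hochberg adjustment over 14966 genes, a gene was called changed at an adjusted p below 0.1 and more than 2-fold. All 10 genes passed the minimum level for testing, Jund in 3 samples, the fewest allowed. In cDC1, 5 of the 10 were called lower with maturation (Egr3, Egr2, Nr4a1, Fos and Jund, the last on 0 to 13 reads per sample and not read here as a fall) and none higher, where 24.5% of all tested genes fell and 21.3% rose. In cDC2, 4 of the 10 fell (Egr3, Egr2, Nr4a1 and Egr1) and none rose, where 17.0% of all tested genes fell and 18.6% rose. The samples of the groups did not overlap for 7 of the 10 in cDC1 and for 6 in cDC2, against 55.4% and 60.0% of all tested genes. The median log2 difference, mature minus immature, over the 10 genes was -1.37 in cDC1 and -0.96 in cDC2, beside -0.0431 and 0.0377 over all tested genes. These medians take in Jund, at -2.03 in cDC1 on its few reads. With Jund left out, the middle value was that of Atf3 in cDC1 (-0.91) and that of Fos in cDC2 (-0.99), so the medians show no larger fall in cDC1.

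Egr3, on chromosome 14 (70077203-70082614, plus strand), is a target of calcium and antigen receptor signals in lymphocytes. Its normalized read counts were 10898, 8016, 5358 and 8151 in immature cDC1 and 166, 172 and 205 in mature cDC1. They were 3629, 2334 and 2784 in immature cDC2 and 111, 196 and 137 in mature cDC2. Every mature sample was far below every immature sample. Egr3 fell by 5.44 ± 0.24 (SE) on the log2 scale in cDC1 (95% interval -5.95 to -4.93, limma adjusted p = 1.99e-13) and it fell by 4.31 ± 0.26 in cDC2 (-4.85 to -3.77, limma adjusted p = 5.54e-11). This was 43.4-fold lower in cDC1 and 19.8-fold lower in cDC2.

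Egr2, on chromosome 10 (67535475-67542188, plus strand), is the EGR factor needed for myelination and for restraint of T cell responses. It had 160, 271, 117 and 183 normalized reads in immature cDC1 and 0, 31.2 and 8.00 in mature cDC1, the last 3 from 0, 18 and 10 reads. In cDC2 it had 364, 426 and 313 normalized reads in immature and 30.7, 41.1 and 13.3 in mature cells. The groups did not overlap in either subset. Egr2 fell by 4.73 ± 0.73 on the log2 scale in cDC1 (limma adjusted p = 1.12e-05) and it fell by 3.77 ± 0.78 in cDC2 (limma adjusted p = 0.000429), and its size was uncertain at so few reads. In cDC1 it was -5.89 with a pseudocount of 0.1 and -3.42 with 8, -3.37 without mature cDC1 replicate 1 and -5.87 without replicate 2. With pool as a replicate block it was -7.24 in cDC1 and -7.55 in cDC2. Both values rest on mature cDC1 replicate 1, with 0 reads, which alone among the mature samples shared a pool with immature cells. Mature cDC2 was linked to it only through the pool shared with mature cDC1 replicate 3.

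Egr1 encodes the EGR factor most widely used as a marker of cell stimulation. It stood at 18455, 19246, 12124 and 16565 normalized reads in immature and at 9658, 6650 and 11364 in mature cDC1. In cDC2 it stood at 17606, 13547 and 12100 in immature and at 6709, 6650 and 4573 in mature cells. The mature samples lay below the immature ones in both subsets, by a narrow margin in cDC1. Egr1 fell by 1.27 ± 0.23 on the log2 scale in cDC2 (95% interval -1.76 to -0.78, limma adjusted p = 0.00014). In cDC1 the difference was -0.86 ± 0.22 (limma adjusted p = 0.00212), short of 2-fold, and it passed 2-fold without thymic immature cDC1 replicate 3 (-1.004) or without mature cDC1 replicate 3 (-1.03).

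Nr4a1, on chromosome 15 (101254269-101274795, plus strand), had 29994, 29144, 25432 and 25789 normalized reads in immature and 1469, 1390 and 4056 in mature cDC1. In cDC2 it had 20241, 18848 and 16907 in immature and 2312, 4354 and 1785 in mature cells. The immature samples lay close together, the mature ones were far below them, and 1 sample in each mature group was more than 1.5 times above the other two. Nr4a1 fell by 3.76 ± 0.35 on the log2 scale in cDC1 (-4.51 to -3.02, limma adjusted p = 1.43e-08) and it fell by 2.83 ± 0.38 in cDC2 (-3.62 to -2.04, limma adjusted p = 3.5e-06). With pool as a replicate block the differences were -4.12 and -4.71, but mature and immature cDC2 shared no pool and were linked only by way of mature cDC1, which shared 1 pool with the immature cells.

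Of the FOS genes, Fos, on chromosome 12 (85473890-85477273, plus strand), had 65678, 82235, 61616 and 67608 normalized reads in immature and 15027, 17467 and 27431 in mature cDC1. In cDC2 it had 37167, 49917 and 33298 in immature and 17574, 23229 and 19252 in mature cells. Both mature groups stood at about the same level, below all immature samples of their subset. Fos fell by 1.83 ± 0.22 on the log2 scale in cDC1 (-2.29 to -1.38, limma adjusted p = 4.23e-07). In cDC2 the difference was -0.99 ± 0.23 (-1.48 to -0.50, limma adjusted p = 0.00155), at the edge of 2-fold. It passed 2-fold without immature cDC2 replicate 1 (-1.04) or 3 (-1.11) or mature cDC2 replicate 2 (-1.10), and with pool as a replicate block (-1.73). It also passed with the correction for GC content and length (-1.025), with lane as a covariate (-1.07), in lane 8 alone (-1.04) and by DESeq2 (-1.002).

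Fosb, whose product can replace FOS in AP-1, had 64800, 63454, 49978 and 62075 normalized reads in immature and 28532, 36277 and 37559 in mature cDC1. In cDC2 the counts were 30731, 34350 and 24693 in immature and 21360, 26410 and 26639 in mature cells. The cDC1 groups were apart, and the cDC2 groups overlapped. The log2 difference was -0.82 ± 0.24 in cDC1 (limma adjusted p = 0.00527) and -0.26 ± 0.25 in cDC2 (-0.79 to 0.26, limma adjusted p = 0.416), neither of them past 2-fold.

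Jun and Junb did not pass the test. Jun, on chromosome 4 (95049034-95052222, minus strand), had 28476, 39293, 25595 and 30225 normalized reads in immature and 18264, 19654 and 36955 in mature cDC1. In cDC2 it had 20453, 28010 and 17623 in immature and 31146, 33575 and 21400 in mature cells. In both subsets the ranges overlapped, and mature cDC1 replicate 3 was nearly at the top of the cDC1 samples. The log2 difference of Jun was -0.37 ± 0.28 in cDC1 (-0.96 to 0.23, limma adjusted p = 0.282) and 0.38 ± 0.30 in cDC2 (-0.25 to 1.02, limma adjusted p = 0.324).

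Junb, on chromosome 8 (84974484-84978718, minus strand), had 11442, 14032, 11887 and 8651 normalized reads in immature and 10677, 13767 and 20141 in mature cDC1. In cDC2 Junb had 14674, 15169 and 14048 in immature and 19400, 23678 and 13124 in mature cells. The ranges overlapped in both subsets. The log2 difference of Junb was 0.34 ± 0.43 in cDC1 (-0.55 to 1.23, limma adjusted p = 0.516) and 0.32 ± 0.46 in cDC2 (-0.64 to 1.27, limma adjusted p = 0.609), and the cDC2 value turned to -0.12 once GC content and length were corrected for. Jund was at 0 reads in all 3 mature cDC1 samples and at 2, 13, 5 and 0 reads in immature cDC1, so that the groups touched at 0 and no fold change is given, although its limma adjusted p was 0.0663. With pool as a replicate block that p was 0.384.

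Atf3, a stress-induced member of the ATF family on chromosome 1 (191170296-191218039, minus strand), had 18754, 20670, 24110 and 16312 normalized reads in immature and 7440, 10965 and 14174 in mature cDC1. The cDC2 counts were 29902, 39264 and 32860 in immature and 12865, 24864 and 17594 in mature cells. All mature samples lay below the immature samples of their subset. The log2 difference was -0.91 ± 0.32 in cDC1 (limma adjusted p = 0.0207) and -0.93 ± 0.35 in cDC2 (limma adjusted p = 0.0337), short of 2-fold. It passed 2-fold in cDC1 without mature cDC1 replicate 3 (-1.13) or immature cDC1 replicate 4 (-1.005), and in cDC2 without immature cDC2 replicate 1 (-1.01) or mature cDC2 replicate 2 (-1.17), and in both with pool as a replicate block (-1.40 and -1.86).

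**Figure D2:**
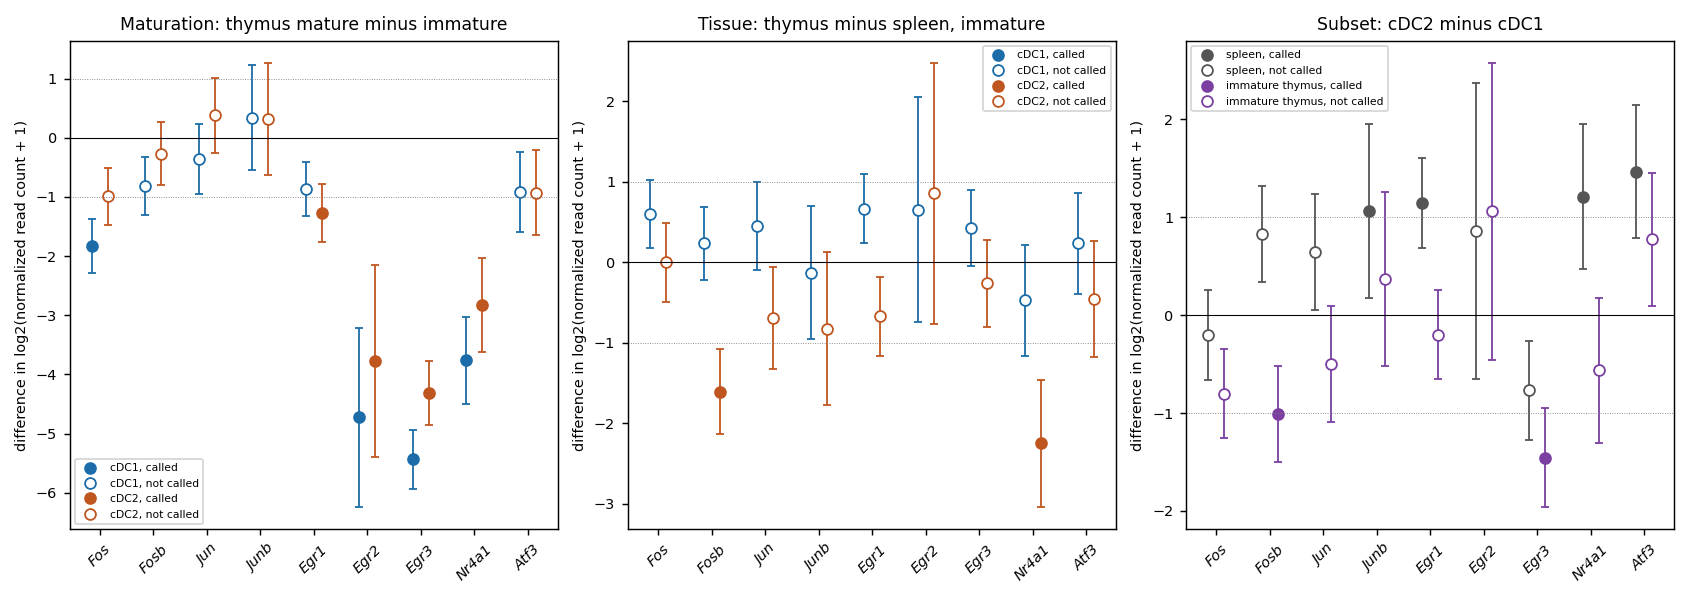
Difference in log2(normalized read count + 1) of 9 of the 10 genes (Jund is left out for its low counts) between mature and immature thymic cells, between thymus and spleen, and between cDC2 and cDC1, with 95% intervals from limma. Filled points were called changed and dotted lines mark 2-fold: Egr3, Egr2 and Nr4a1 were filled below the line for both subsets in the maturation panel, Fosb and Nr4a1 for cDC2 in the tissue panel.

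The maturation difference of a gene was then compared between the subsets by its interaction term. Egr3 differed by 1.13 ± 0.35 on the log2 scale (95% interval 0.39 to 1.87, limma adjusted p = 0.04), with the larger fall in cDC1, and was the only one of the 10 called, where 8.38% of all tested genes were called in that direction and 5.27% in the other. This call was lost without thymic immature cDC1 replicate 1 (0.97), immature cDC2 replicate 2 (0.98) or mature cDC2 replicate 2 (0.91), with the correction for GC content and length (0.89) and with pool as a replicate block (0.92), where Egr1 was called instead (-1.05). Without mature cDC1 replicate 3, the count was 4 (Egr3, Fos, Jun and Nr4a1), and Fos had a difference of 1.10. With all samples the difference of Fos was 0.84 ± 0.32 (limma adjusted p = 0.0923), short of 2-fold.

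Other genes of these pathways did not share 1 direction with maturation. Of 7 tested other AP-1 genes, 1 rose and 2 fell in each subset. Batf3, a factor required for the development of cDC1, rose by 1.82 on the log2 scale in cDC1 and by 2.78 in cDC2, whereas Fosl2, a FOS relative, fell by 1.27 in cDC1 and fell by 2.36 in cDC2. Jdp2 fell by 1.18 in cDC1 and Batf fell by 1.91 in cDC2.

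The closest relatives of Nr4a1, named for their family and not for their change, were not called. The log2 difference with maturation was 0.17 in cDC1 and -0.12 in cDC2 for Nr4a2 (limma adjusted p = 0.532 and 0.698), and 0.99 and 0.39 for Nr4a3 (0.00216 for the first, at the edge of 2-fold). Among 4 tested genes of the other EGR and NR4A factors and the EGR corepressors, Nab2 fell by 1.04 in cDC2 and no other gene was called. Whether Nr4a1 differed from these relatives was not tested.

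Of 27 other immediate-early genes tested, 11 rose and 6 fell in cDC1 and 11 rose and 7 fell in cDC2, with medians of 0.30 and 0.77 on the log2 scale. Arc, best known from neurons and also carried by migratory dendritic cells, rose by 7.38 in cDC1 and by 5.83 in cDC2, and Gadd45b, a stress-response gene, rose by 5.27 and by 3.10. Myc fell by 5.09 in cDC1 and Trib1 fell by 2.75 in cDC2. Of 13 tested kinases and SRF or CREB factors upstream, 4 rose and 1 fell in cDC1 and 2 rose and 1 fell in cDC2. Mapk14, the p38 alpha kinase, fell by 3.87 in cDC1 and fell by 2.88 in cDC2, and Crem, which encodes CREB-like activators and repressors, rose by 1.82 in cDC1.

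**Figure D3:**
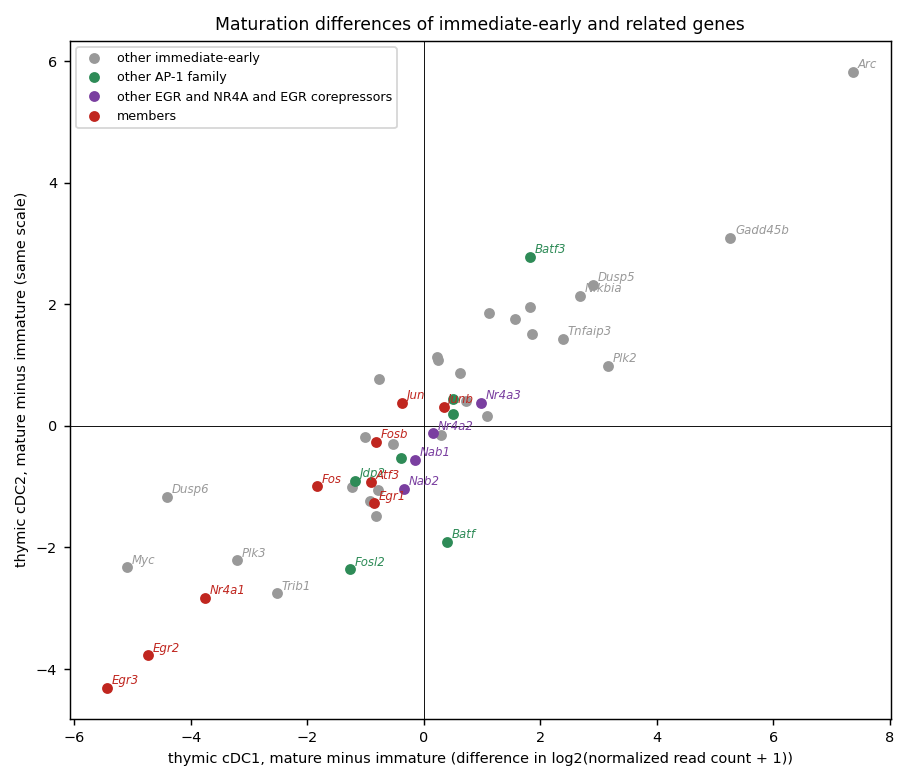
Maturation difference (mature minus immature, in log2(normalized read count + 1)) in thymic cDC1 on the x axis and in thymic cDC2 on the y axis for 9 of the 10 genes in red (Jund is left out) and for other immediate-early, AP-1 and EGR or NR4A genes in other colours. Egr3, Egr2 and Nr4a1 sit at the lower left, Jun and Junb near the centre, and Arc and Gadd45b at the upper right.

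The second comparison asked which of these genes differ between the thymus and the spleen in immature cells. In cDC1, limma called none of the 10, where 4.26% of all tested genes were higher in the thymus and 4.49% lower, and DESeq2 and edgeR called 0 as well. At an unadjusted p below 0.05 there were 2, Egr1 and Fos. In cDC2, 2 of the 10 were lower in the thymus (Nr4a1 and Fosb), where 5.87% of all tested genes were lower and 8.3% higher. The groups did not overlap for 2 of the 10 genes in cDC1 and for 4 in cDC2, against 17.8% and 39.3% of all tested genes. The median log2 difference over the 10 genes was 0.33 in cDC1 and -0.56 in cDC2, beside 0.00406 and 0.0208 over all tested genes.

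Nr4a1 had 30572, 32670, 65581 and 32721 normalized reads in splenic immature cDC1, and 89416, 60331 and 128878 in splenic immature cDC2. The splenic cDC2 samples were the highest but for 1 splenic cDC1 sample that lay between them, and all were above the thymic samples of their subset given above. Nr4a1 was lower in thymic than in splenic cDC2, with a log2 difference of -2.25 ± 0.38 (95% interval -3.04 to -1.46, limma adjusted p = 0.000195). In cDC1 the difference was -0.48 (limma adjusted p = 0.467), although the groups did not overlap.

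Fosb had 60949, 43068, 67967 and 37383 normalized reads in splenic cDC1 and 101050, 63616 and 114542 in splenic cDC2. The splenic cDC2 samples lay above all thymic cDC2 samples, and the cDC1 groups overlapped. The difference of Fosb, thymus minus spleen, was -1.61 ± 0.25 on the log2 scale in cDC2 (-2.13 to -1.08, limma adjusted p = 8.9e-05) and 0.23 in cDC1 (limma adjusted p = 0.63).

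Fos had 41123, 42701, 55232 and 43954 normalized reads in splenic cDC1 and 39011, 31943 and 49493 in splenic cDC2. Every thymic cDC1 sample was above every splenic one, and the cDC2 groups covered nearly the same range. The difference was 0.60 ± 0.20 in cDC1 (0.18 to 1.02, limma adjusted p = 0.0596), short of 2-fold, and 0.00 ± 0.23 in cDC2 (-0.49 to 0.49).

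Egr1 had 9766, 10483, 12772 and 8572 normalized reads in splenic cDC1 and 22656, 18489 and 27931 in splenic cDC2. The splenic cDC1 samples overlapped the thymic ones at 1 sample, and the splenic cDC2 samples were all above the thymic ones. The difference had opposite signs, 0.67 ± 0.20 in cDC1 (limma adjusted p = 0.0335) and -0.67 ± 0.23 in cDC2 (limma adjusted p = 0.0474), both short of 2-fold.

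Egr3 had 5360, 5723, 8387 and 4583 normalized reads in splenic cDC1 and 2858, 3357 and 4246 in splenic cDC2, and its thymic and splenic ranges overlapped in both subsets. Egr2 had 82.4, 92.7, 172 and 113 in splenic cDC1 and 190, 151 and 284 in splenic cDC2. All thymic cDC2 samples were above the splenic ones for Egr2, and with a difference of 0.86 (-0.76 to 2.48, limma adjusted p = 0.496) the test did not call it.

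Jun had 23934, 19118, 28840 and 19056 normalized reads in splenic cDC1 and 46438, 21923 and 42137 in splenic cDC2. Junb had 10606, 8191, 29911 and 9103 in splenic cDC1 and 34151, 10853 and 47169 in splenic cDC2. Splenic cDC1 replicate 3 was high and splenic cDC2 replicate 2 low for both genes, and all tissue ranges overlapped. The cDC2 difference was -0.70 ± 0.30 for Jun (-1.33 to -0.06, limma adjusted p = 0.117) and -0.83 ± 0.46 for Junb (-1.78 to 0.12, limma adjusted p = 0.227). Without splenic cDC2 replicate 2, both were called lower in the thymus (-1.03 and -1.46) and the count in cDC2 was 4.

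Atf3 had 26320, 11214, 23349 and 11502 normalized reads in splenic cDC1 and 60796, 28753 and 56842 in splenic cDC2, and it overlapped between tissues in both subsets. Markers of other cells differed between the tissues as well. All 4 tested pDC markers were called higher in thymic than in splenic immature cDC2, with a summed level of 5 markers of 7086 to 8010 against 2304 to 3419, and so were 3 of 6 macrophage or monocyte markers (C1qa, C1qb and C1qc). The summed level of 5 neutrophil markers was 639 to 873 normalized reads in thymic and 0 to 4.37 in splenic immature cDC2. Of these markers, Cxcr2 was the 1 high enough to be tested, and 2 were at 0 in thymic immature cDC2. This sum therefore does not stand for the neutrophil markers as a set. The summed level of 5 thymic epithelial markers was 3487 to 3816 in thymic and 84.7 to 152 in splenic immature cDC2. The part of such cells in the levels of these genes was not tested.

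The difference between thymus and spleen lay lower in cDC2 than in cDC1 for 3 of the 10 genes in a test of the interaction, where 1.72% of all tested genes were called in that direction and 3.25% in the other. The interaction was -1.84 ± 0.33 on the log2 scale for Fosb (-2.53 to -1.15, limma adjusted p = 0.00164), -1.34 ± 0.31 for Egr1 (-1.99 to -0.69, limma adjusted p = 0.0123) and -1.78 ± 0.50 for Nr4a1 (-2.82 to -0.73, limma adjusted p = 0.0458). For Jun it was -1.14 ± 0.40 (-1.98 to -0.30, limma adjusted p = 0.133), not called with all samples, and it was called under 8 of 34 alternatives, the replicate block of pools among them (-1.23). The call for Nr4a1 was lost without splenic cDC2 replicate 3 (-1.51) or thymic immature cDC2 replicate 3 (-1.71). With the reads of each pool and group summed to 1 sample, the call for Nr4a1 was lost too (-1.71, limma adjusted p = 0.111). The median interaction over the 10 genes was -0.69, beside 0.0244 over all tested genes. In the samples of lane 8 alone, where the spleen had 2 cDC1 samples and 1 cDC2 sample, Fosb was the only one still called (-2.18).

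Among other immediate-early genes, 4 rose and 1 fell in the thymus relative to the spleen in cDC1, and 2 rose and 4 fell in cDC2, of 27 tested. Ier3, an early response gene of NF-kB signalling, was higher by 3.09 on the log2 scale in thymic cDC1 and by 4.05 in thymic cDC2, and Socs3, an inhibitor of cytokine signalling, by 2.94 and 2.91. Klf2 was lower by a difference of -1.67 in thymic cDC2, and Nr4a2, the relative of Nr4a1, by a difference of -1.07. The interaction was called below 0 for 6 of the 27 and above 0 for none.

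The third comparison asked which of these genes differ between cDC2 and cDC1. In the spleen, 4 of the 10 were higher in cDC2 (Atf3, Egr1, Nr4a1 and Junb), where 9.9% of all tested genes were higher and 6.71% lower. In immature thymic cells, 2 were lower in cDC2 (Egr3 and Fosb), where 5.43% of all tested genes were lower and 11.0% higher. In mature thymic cells, 1 was higher in cDC2 (Egr2), where 14.6% of all tested genes were higher and 4.36% lower. The groups did not overlap for 3, 7 and 2 of the 10 genes in these 3 comparisons, against 31.6%, 34.8% and 32.8% of all tested genes. The 2 in mature thymus were Fosb and Jund, the latter on 0 to 8 reads per sample and not read here as a difference. The median log2 difference, cDC2 minus cDC1, was 0.84 in spleen, -0.35 in immature thymus and 0.30 in mature thymus, beside 0.0201, 0.012 and 0.142 over all tested genes.

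In the spleen, Atf3 was higher in cDC2 by 1.46 ± 0.32 on the log2 scale (0.79 to 2.14, limma adjusted p = 0.00178) and Egr1 by 1.14 ± 0.22 (0.68 to 1.60, limma adjusted p = 0.000465), both with groups that did not overlap. Nr4a1 was higher by 1.21 ± 0.35 (0.47 to 1.95, limma adjusted p = 0.015) and Junb by 1.07 ± 0.43 (0.18 to 1.96, limma adjusted p = 0.0778), with 1 splenic cDC1 sample inside the cDC2 range for each. Without splenic cDC2 replicate 3, Atf3 alone was still called, as Egr1 came to 0.99, Nr4a1 to 0.94 and Junb to 0.63. The call for Nr4a1 was also lost in lane 8 alone (1.48, limma adjusted p = 0.16). The call for Junb was also lost without splenic cDC1 replicates 1, 2 or 4 or splenic cDC2 replicate 1 (0.87 to 0.99). It was lost in lane 8 alone (1.51) and with the correction for GC content and length (0.96). Summing the reads of each pool and group to 1 sample lost it too (0.97, limma adjusted p = 0.167). So did fitting only the groups compared (limma adjusted p = 0.3085) and testing without the minimum level (limma adjusted p = 0.119). The difference of Junb was 2.12 without splenic cDC1 replicate 3 and cDC2 replicate 2 together. Fosb was higher by 0.83 ± 0.24 (limma adjusted p = 0.0121) and passed 2-fold without splenic cDC2 replicate 2 (1.08). Egr3 was on the other side, at -0.77 ± 0.24 (limma adjusted p = 0.0238) with groups that did not overlap, short of 2-fold. Within the 3 splenic pools, cDC2 was above cDC1 in all 4 sample pairs for Fosb, Jun, Junb, Egr1, Egr2, Atf3 and Nr4a1, and below in all 4 for Fos and Egr3.

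In immature thymic cells, Egr3 was lower in cDC2 by a difference of -1.45 ± 0.24 on the log2 scale (-1.96 to -0.95, limma adjusted p = 0.000112) and Fosb by a difference of -1.01 ± 0.24 (-1.502 to -0.52, limma adjusted p = 0.00292). The call for Fosb sat at the 2-fold edge and was lost without thymic immature cDC1 replicate 1 (-0.97), 2 (-0.98) or 4 (-0.99), or without immature cDC2 replicate 3 (-0.88). Fos was lower by a difference of -0.80 ± 0.22 (limma adjusted p = 0.0105) and Atf3 higher by 0.77 ± 0.32 (limma adjusted p = 0.104), each with groups that did not overlap. Within the 3 thymic pools that gave both immature subsets, cDC2 was below cDC1 in all 4 sample pairs for Fos, Fosb, Jun, Egr1, Egr3 and Nr4a1, and above in all 4 for Junb, Egr2 and Atf3.

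In mature thymic cells the call for Egr2 rested on few reads. The difference was 2.02 ± 0.78 on the log2 scale (0.40 to 3.64, limma adjusted p = 0.0669) with overlapping groups, and came to 0.65 without mature cDC1 replicate 1, the sample with 0 reads. It was also lost without mature cDC2 replicate 1 (1.89) or 2 (1.69), by DESeq2 (1.14), by edgeR (1.20), in lane 8 alone (limma adjusted p = 0.15) and with pool as a replicate block (0.67). That fit, in which both mature groups shared 1 pool, called Egr1 (-1.31) and Nr4a1 (-1.18) lower in cDC2, the latter against 0.37 without the block. Without the block, Egr1 had a difference of -0.61 ± 0.23 (limma adjusted p = 0.0653), short of 2-fold. With the correction for GC content and length, Egr1 was called (-1.13, limma adjusted p = 0.000164). For Fos the difference was 0.04 ± 0.23 (-0.45 to 0.53).

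Other immediate-early genes were called higher in splenic cDC2 in 12 of 27 cases and lower in 0, led by Gadd45b (3.01 on the log2 scale), Socs3 (2.16) and Plk2 (1.80). In thymic cells, 4 were higher and 1 lower in immature and 3 higher and 1 lower in mature cDC2. Fosl2 was higher in cDC2 by 2.39 in the spleen and by 2.98 in immature thymus. All 6 macrophage or monocyte markers were called higher in cDC2 in each of the 3 comparisons, and their part in the levels of these genes was not tested.

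The spread between replicates differed between the genes. The within-group SD on the log2 scale, pooled over the 6 groups, was 0.641 for Junb, 0.526 for Nr4a1, 0.473 for Atf3 and 0.401 for Jun, and 0.278 to 0.349 for Fos, Fosb, Egr1 and Egr3. The median of the 4754 tested genes with a mean of at least 1000 was 0.253. Among these genes, Junb stood at the 97.9th percentile, Nr4a1 at the 96.4th, Atf3 at the 94.1st, Jun at the 87.3rd and Fos at the 59.4th. Egr2 and Jund had an SD of 1.07 and 1.28 at their low levels.

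The genes tended to deviate from their group means in the same samples. Over the 20 samples, the 28 pairs among the 8 members with a mean of at least 1000 had a median Pearson correlation of deviations of 0.652, from 0.20 for Egr1 with Atf3 to 0.835 for Fos with Jun, and a median Spearman correlation of 0.619. With the 2 farthest samples left out, the median was 0.595. All pairs of the 4754 genes had a median of 0.0704. These values describe samples that share a library, a normalization and a group centring. Splenic cDC1 replicate 3 and splenic cDC2 replicate 3, which shared a pool number, and mature cDC1 replicate 3 were high, and splenic cDC2 replicate 2 low, for Fos, Fosb, Jun, Junb, Egr1, Nr4a1 and Atf3 alike.

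These deviations also moved with the composition of the library. The correlation between a gene's deviation and the slope of its library on GC content was 0.906 for Junb, 0.705 for Nr4a1, 0.577 for Jun, 0.486 for Egr1, 0.48 for Atf3, 0.459 for Fos, 0.40 for Fosb and 0.281 for Egr3, over 20 samples. With that slope taken out of each gene, the median over the 28 pairs was 0.549 (-0.0437 to 0.942). The longest transcript held 62.6% GC for Junb, 56.95% for Nr4a1, 55.5% for Jun and 57.3% for Egr1. It held 52.2% for Atf3, 51.9% for Fos, 56.0% for Fosb and 51.35% for Egr3, not in the order of the correlations. Heat shock genes, another group known to respond to handling of cells, deviated with these genes at a median of 0.197 over 88 pairs (-0.572 to 0.871). This was below the median among the members and above the 0.0704 of all pairs of genes. Of 12 heat shock genes tested, at most 1 was called in either direction in any of the comparisons, where 1.72% to 24.5% of all tested genes were called in a direction. The part of cell handling in these deviations was not tested.

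**Figure D4:**
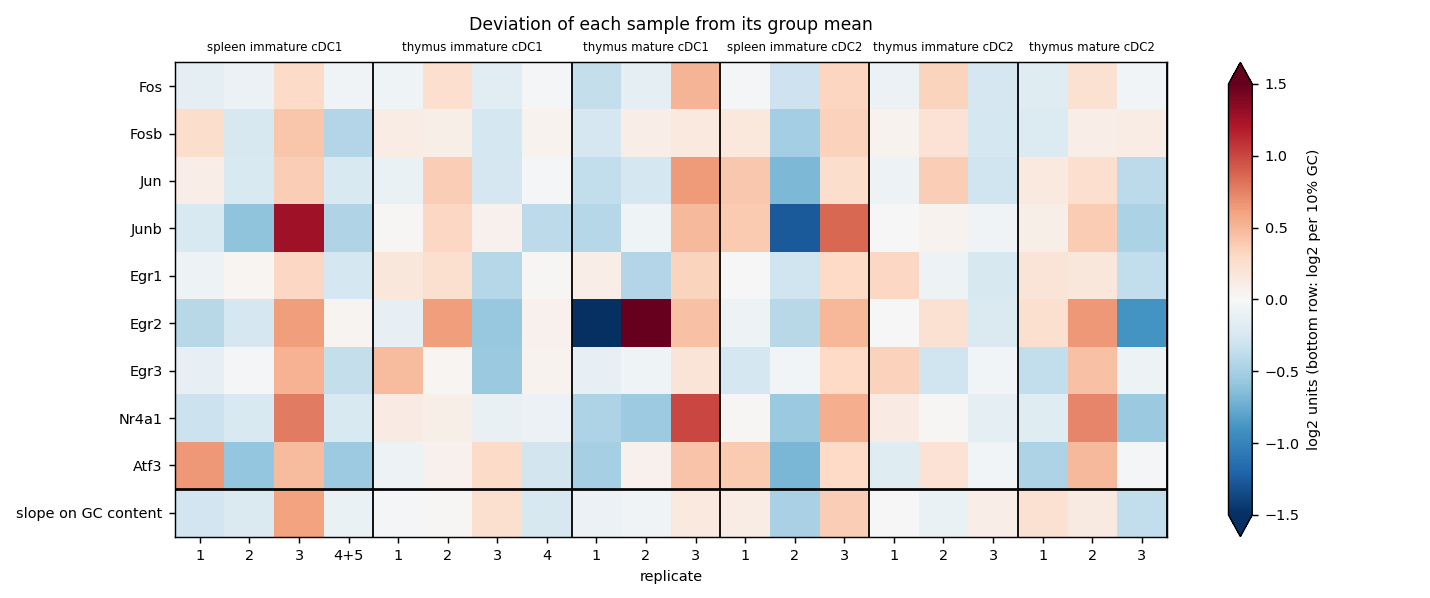
Deviation of each sample from its group mean, in log2 units, for 9 of the 10 genes (Jund is left out for its low counts), with the slope of the library on GC content in the bottom row. Splenic cDC1 replicate 3 is red and splenic cDC2 replicate 2 blue in all or nearly all rows, the bottom row included.

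For each gene, the 3 genes of 11215 with the highest Pearson correlation over the 20 samples were listed. For Egr3 they were Inpp5d (0.987), Ampd3 (0.985) and Slc37a3 (0.984), and for Nr4a1 Abr (0.980), Mapk14 (0.9749) and Hdac10 (0.972). For Fos the closest gene was Sh3tc1 (0.958), for Egr2 Sord (0.966), for Egr1 Lmtk2 (0.935), for Atf3 Tatdn2 (0.932), for Junb Rexo1 (0.915) and for Fosb Bcl6 (0.909). Jun had no gene above 0.764 (Cxxc1). These values mostly follow the differences between groups.

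Over the deviations from group means, the closest genes were others. Fosb was closest to Sik1 (0.943), a CREB-induced kinase gene, Atf3 to Maff (0.939), which encodes a small MAF factor, and Nr4a1 to Trib1 (0.932), a pseudokinase gene. Jun was closest to Tsc22d3 (0.932), a glucocorticoid-induced gene, Junb to Usp19 (0.973), Egr1 to Zfhx2 (0.917), Egr2 to Icam2 (0.932), Fos to Vgll4 (0.874) and Egr3 to Fosl2 (0.838). Sik1, Maff, Trib1 and Fosl2 are induced early after stimulation in many cells.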

How the data were processed

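RNA was sequenced from 21 sorted cDC libraries (TruSeq Stranded mRNA, paired-end reads). The authors used Cutadapt for trimming, STAR (2.6 per the labels) for alignment to mm10 and HTSeq-count for counting per Ensembl gene, and deposited a signal per gene and library, the read count divided by a DESeq2 (1.24.0) size factor. The annotation release and strand setting are not given in the sources used here. Whole reads were recovered from these values. The values of splenic cDC1 replicates 4 and 5 were summed as reads and counted as 1 sample. Replicates carried numbers in their descriptions that are read here as pools of mice, and splenic cDC1 replicates 1 and 4 shared one, as did thymic immature cDC1 replicates 3 and 4, so p-values measure the spread between samples that are partly technical repeats.

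A gene entered the tests when 3 or more samples had a value of 10 or more. The tests were made with limma 3.58.1 (R 4.3.3) on log2(value + 1) with 1 mean per group over all 6 groups, and Benjamini-Hochberg adjustment over 14966 genes. A gene was called at an adjusted p below 0.1 and an absolute log2 difference above 1. Fold changes are on the log2(value + 1) scale. The tests were checked on simulated data. DESeq2 1.42.0 and edgeR 4.0.16 on the recovered reads were among the alternatives. The named genes are the 10 members, up to 3 called genes per list and comparison by the size of the change, the 3 genes most like each member, and, called or not, Nr4a2, Nr4a3, Fosl2 and Batf3. The members and lists were chosen with earlier results of these data known. Gene positions follow GENCODE M21, and upstream windows come from RefSeq.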

Additional observations from a re-analysis of the deposited data

Results flagged for a closer look

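Junb and Nr4a1 each had 1 sample far above the others of its group in splenic cDC1. Replicate 3 had 29911 normalized reads of Junb, where the other samples had 8191 to 10606, and 65581 of Nr4a1, where the other samples had 30572 to 32721. Among 18 tests of a gene in a group of 4 samples, these 2 passed Dixon's critical value, and chance alone passes about 1 group in 20. That library also had the highest slope on GC content (0.603 log2 units per 10% GC).

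In tests of the difference itself, Egr3 fell less with maturation in cDC2 than in cDC1 (a difference of 1.13 on the log2 scale). The difference between thymus and spleen was not the same in cDC2 as in cDC1 for Fosb (-1.84), Nr4a1 (-1.78) and Egr1 (-1.34). The call for Fosb was kept under all 34 alternatives that kept the thresholds. Those for Egr3, Nr4a1 and Egr1 were lost under some of them.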

How the results depend on the processing

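The falls of Egr3, Egr2 and Nr4a1 with maturation in both subsets, of Fos in cDC1 and of Egr1 in cDC2 kept their call under all 34 alternatives that kept the thresholds, and so did Fosb and Nr4a1 between the tissues in cDC2 under all 33. Of these alternatives, 20 left out 1 sample each. Most of those samples were outside the groups compared, which leaves the difference itself unchanged, so the count overstates how far the calls were put to the test. The sizes of the falls moved, from -5.62 to -5.28 for Egr3, -7.24 to -3.37 for Egr2 and -4.27 to -3.49 for Nr4a1 in cDC1, and from -4.53 to -4.13, -7.55 to -3.32 and -4.71 to -2.55 in cDC2. The ends at -7.24, -7.55 and -4.71 came from the fit with pool as a replicate block, which rests on mature cDC1 replicate 1. Without a fold threshold the number called was 8 for maturation in cDC1 (5 with it), 2 for tissue in cDC1 (0), 2 between subsets in mature cells (1) and 2 for the maturation interaction (1). Above a log2 difference of 2, which Fos, Egr1 and Fosb did not reach with all samples, it was 1 for tissue in cDC2 (Nr4a1) and 0 for the subset in spleen and in immature thymus and for both interactions. In lane 8 alone it was 4 for tissue in cDC2 (2 in all samples), 1 for the subset in immature thymus (2), 0 in mature thymus, 0 for the maturation interaction and 1 for the tissue interaction (3). Between subsets in mature cells it was 0 by DESeq2, edgeR and a pseudocount of 8, and 2 with a pseudocount of 0.1. The correction for GC content and length, and the removal of splenic cDC1 replicate 3 and cDC2 replicate 2 together, were chosen after the data were seen. The correction gave 2 between subsets in mature cells and 0 for the maturation interaction, and turned Junb in cDC2 maturation to -0.12. The removal gave 4 for tissue in cDC2 and 5 for the tissue interaction. The cause was not tested.

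Leaving out each sample in turn gave 4 to 6 members for maturation in cDC1 and in cDC2, 0 to 0 for tissue in cDC1, 2 to 4 in cDC2, 1 to 5 for the subset in spleen, 1 to 3 in immature thymus, 0 to 1 in mature thymus, 0 to 4 for the maturation interaction and 2 to 4 for the tissue interaction.

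The deviations of samples that shared a pool number correlated at -0.15 to 0.46 (12 pairs, median -0.00128). Of the 9 pairs of cDC1 and cDC2 of 1 tissue and state, 4 were over 0.1, the highest in the splenic pool of both replicates 3. The labels do not say what the number marks. With pool as a replicate block, 2 members were called between subsets in mature cells (Egr1 and Nr4a1, with Egr2 lost), Jun in cDC2 maturation turned to -0.81 and Junb to -0.92, thymus against spleen within a subset could not be estimated, and genes called over the whole table between mature subsets went from 2836 to 1651.

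Depth limits Jund, with at most 14 reads per sample, and Egr2 in mature cells. Of 42 differences between tissues or subsets and interactions with an adjusted p of 0.1 or more, Jund left out, 13 changed sign and 10 were called under some alternative.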
